A study of Mus musculus with 3 samples.

Results

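The genes described here are 10 genes of enamel formation, 10 of the 24813 genes named on the array: Amelx, Ambn, Enam, Mmp20, Klk4, Odam, Amtn, Fam83h, Wdr72 and Adgrf4, the last listed on the array under its older name Gpr115. They were taken by gene name, and all 10 had probes, 16 in all, each printed as 1 spot. Of them, 7 genes had 1 probe. RNA came from CLDE, a mouse dental epithelial cell line that originates from the cervical loop, the growing end of the incisor. The 3 arrays were of cells given an siRNA against keratin 15 (siKrt15), a non-targeting siRNA (siNeg) or a mock transfection, all harvested after 72 h, with 1 array for each. By the series title, the study asked about keratin 15 and proliferation in the outer enamel epithelium. For siKrt15 and siNeg the labels are crossed: each array's title and source name state one of these siRNAs, while its description and treatment field state the opposite one. The titles were followed here, and "the siKrt15 array" is the one with siKrt15 in its title. CLDE is a single line, and the arrays have no replicate check, so no p-value was computed.

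Ameloblasts, the epithelial cells that make enamel, first secrete a protein matrix and later remove it while the mineral hardens. In the secretory stage the matrix consists mostly of amelogenin (Amelx), with ameloblastin (Ambn) and enamelin (Enam), and is trimmed by the metalloprotease Mmp20. In the maturation stage the serine protease Klk4 degrades the matrix, and Odam and Amtn are deposited in the layer between ameloblast and enamel. Mutations in Fam83h, a protein bound to keratin filaments and casein kinase 1, in Wdr72, which acts in vesicle traffic, and in many of the matrix and protease genes cause amelogenesis imperfecta, an inherited enamel defect, in humans. Adgrf4 is an adhesion G protein-coupled receptor that maturation-stage ameloblasts need for normal mineralization in mice.

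Each member's reading is that of its probe, a 60-base oligonucleotide, and a probe is named here by its gene and by the position in the transcript at which it starts. Probes for the matrix and enamel surface proteins and 1 dim Wdr72 probe, which apart from the first gave no signal well above background, are printed to show what was looked for, 5′ to 3′. The Amelx probe at 117 is the only one that was above background in the controls alone.
Amelx (117): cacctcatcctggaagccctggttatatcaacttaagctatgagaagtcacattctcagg
Amelx (590): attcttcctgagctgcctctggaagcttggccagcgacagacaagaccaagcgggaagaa
Enam (4042): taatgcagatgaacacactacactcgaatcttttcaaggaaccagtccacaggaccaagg
Ambn (700): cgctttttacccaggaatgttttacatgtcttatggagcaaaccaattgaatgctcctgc
Odam (261): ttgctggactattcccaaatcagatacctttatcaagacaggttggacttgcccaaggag
Amtn (213): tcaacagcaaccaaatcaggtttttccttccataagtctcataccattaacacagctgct
Wdr72 (556): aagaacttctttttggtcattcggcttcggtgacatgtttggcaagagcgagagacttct
For 6 more probes the first 30 bases are shown, again 5′ to 3′. These include all probes that were well above background on every array, on which the differences between arrays rest.
Mmp20 (2617): ttgcttcatatagtcatgaaaagactaact
Klk4 (1048): atgccacaacctcctccctggaacacagga
Fam83h (4408): ccagcaagtttctgggtagcacttgaagag
Wdr72 (1309): ctctctcaagtgttgtgcaagttggctgaa
Wdr72 (4783): gtaagctttgggacttgcaattaattattg
Adgrf4 (2732): tcaggtcagattcagtgtcagtggtggggt
The Amelx probe at 117 spans 1292 bases of the genome, at chrX:165620584-165621875 on the minus strand of mm9, so it joins separate exons. The Amelx probe at 590 lies at chrX:165619713-165619772 and a further Amelx probe, at 687, at chrX:165618015-165618074. The Ambn probe spans 530 bases at chr5:88894212-88894741 and the Amtn probe 795 bases at chr5:88807126-88807920. The Enam probe lies at chr5:88933627-88933686 and the Odam probes at chr5:88316448-88316507 and chr5:88322715-88322774. Mmp20 is read at chr9:7674310-7674369, Klk4 at chr7:51140986-51141045 and Fam83h at chr15:75831557-75831616. The Wdr72 probes at 1309, 556, 1393 and 4783 lie at chr9:73961427-73961486, chr9:73987444-73987503, chr9:73990520-73990579 and chr9:74130576-74130635. Adgrf4 is read at chr17:42794108-42794167 on the minus strand. Coordinates are those of the array files, and the exon or UTR in which each probe lies was not used here.

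Signals are the scanner software's background-subtracted processed signals, in arbitrary units. A spot is called well above background by the software's own flag, which on these arrays was first met at a signal of 4.51 on the siKrt15 array, 4.49 on the siNeg array and 4.56 on the mock array. Probes bind with different strength, so a signal was compared only with the same probe's signal on another array. Over all probes, 67.3% of the spots on the siKrt15 array, 69.2% on the siNeg array and 69.0% on the mock array were well above background, and 0 spots were saturated. The target, Krt15, read 267 on the siKrt15 array, 1647 on the siNeg array and 2638 on the mock array, an order that goes with the titles and against the descriptions. Were the descriptions right, every siKrt15 minus siNeg sign below would turn, and each value given as siKrt15 against mock would be that of siNeg against mock and the reverse. Of 8 dental and oral epithelium markers, 8 were well above background on each array, and of 5 outer enamel epithelium and cervical loop markers 3 were, with Lgr5 and Igfbp5 not. Their summed signals ran from 331000 to 342000 and from 1690 (siKrt15) to 3390 (mock), the second including Krt15. Of 7 ameloblast markers, all of them genes of this set, 1 was well above background on the siKrt15 array and 2 on each control array. Odontoblast markers (2 of 4, Dmp1 and Phex not above, summed signals 48.2 to 53.6) were partly above background on all arrays. So were blood and endothelial markers (3 of 4 with a probe, Cdh5 not above, 1340 to 1610). Of dental mesenchyme markers 7 or 8 of 8 were above (652 to 732), with Vim not above on the siKrt15 and siNeg arrays. The part of these cell types in any difference was not tested.

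Most enamel genes were at or near the limit of detection in these cells. Of the 48 readings of the 16 probes, 17 were well above background, 13 were above zero by the software's significance flag but not well above background, and 18 were at the floor value that the software puts in place of a signal that does not exceed background. Genes with at least 1 probe well above background numbered 4 on the siKrt15 array, 5 on the siNeg array and 5 on the mock array. Klk4, Fam83h, Wdr72 and Adgrf4 were above on all 3 arrays and Amelx on the siNeg and mock arrays. Ambn, Enam, Mmp20, Odam and Amtn, 5 of the 10, were above on none. The label "ameloblast" thus describes what these genes are known for, and in CLDE cells most transcripts that define a secretory ameloblast were not detected by these probes. A low signal says nothing of whether fewer cells carried a transcript or each cell carried less of it, since in bulk RNA these cannot be told apart.

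**Figure D1:**
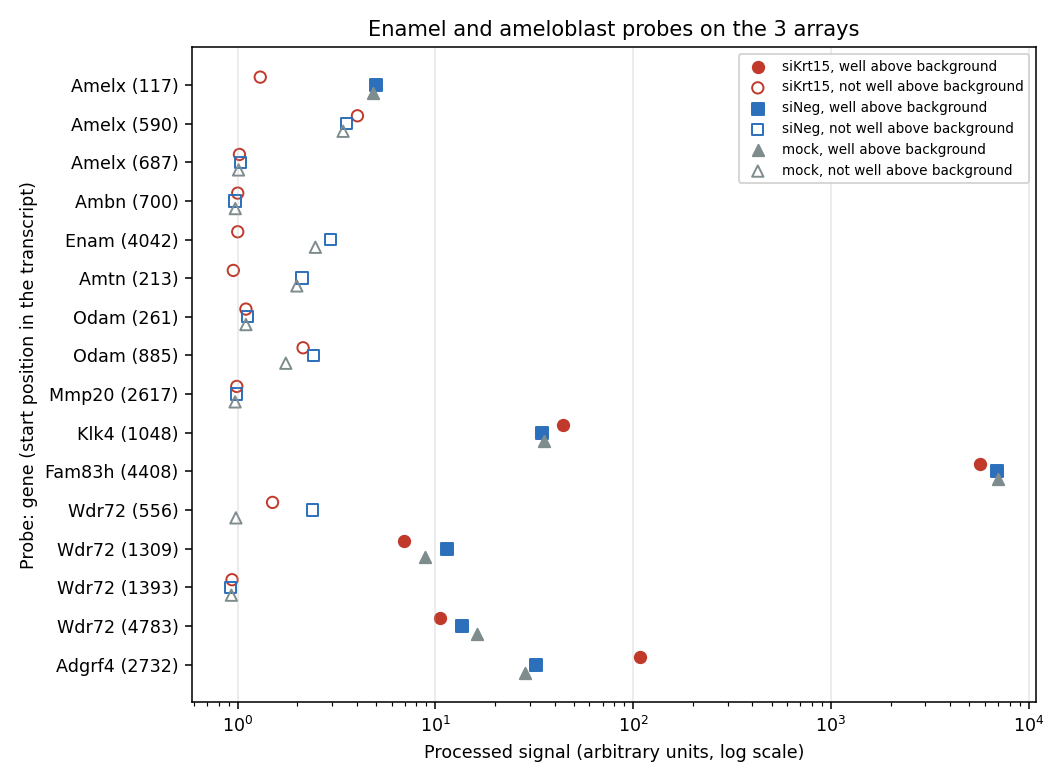
Processed signal (arbitrary units, log scale) of each of the 16 probes on the siKrt15 (red circles), siNeg (blue squares) and mock (grey triangles) arrays, 1 reading per array, filled where well above background and open where not. Probes of Ambn, Enam, Amtn, Odam and Mmp20 are open on all 3 arrays, and the Adgrf4 probe sits at 108 on the siKrt15 array, against 32.4 on the siNeg array and 28.2 on the mock array.

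Amelogenin, the main protein of the secretory matrix, was read by 3 probes that did not behave alike. The probe at 117 gave a signal of 1.30 on the siKrt15 array, 5.00 on the siNeg array and 4.83 on the mock array, with errors from the scanner's own model of 0.963, 1.06 and 1.06 in that order. It was well above background on both control arrays and not on the siKrt15 array. The siKrt15 reading was given an upper bound, the lowest signal well above background on that array (4.51). With that bound, and the control readings taken as exact, the scaled siKrt15 level of Amelx at this probe was 1.33-fold or more below siNeg. Against mock it was 1.21-fold or more below. These bounds are nominal, since the errors of the control readings were left out. Most of each comes from scaling, as the siKrt15 array had the highest 75th percentile (216, against 180 for siNeg and 191 for mock). Before scaling, the control readings of 5.00 and 4.83 exceeded 4.51 by less than their errors of 1.06. The raw spot was faint everywhere, with a mean brightness of 21.2 scanner units over a local background of 18 on the siKrt15 array, 25.2 over 19 on the siNeg array and 24.3 over 20 on the mock array. The siNeg minus mock difference on the log2 scale was 0.13 ± 0.44 (error-model SD), within its error. The probe at 590 read 4.03 on the siKrt15 array, 3.56 on the siNeg array and 3.41 on the mock array, and was well above background on none. The siKrt15 reading was the highest before scaling. After each array's 75th percentile was subtracted on the log2 scale, the levels at this probe were −5.75 in siKrt15, −5.66 in siNeg and −5.81 in mock, so the low siKrt15 reading of the probe at 117 was not seen here. The probe at 687 was at the software's floor on every array, at 1.02, 1.03 and 1.01. The bound for Amelx therefore rests on 1 faint probe of 3, and the array files list that probe for a single Ensembl transcript.

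The other matrix proteins of the secretory stage were not detected. Ambn, which encodes ameloblastin, read 1.0 on the siKrt15 array, 0.969 on the siNeg array and 0.972 on the mock array, all at the floor. Enam, which encodes the largest of the matrix proteins, read 1.0 on the siKrt15 array, 2.95 on the siNeg array and 2.47 on the mock array. The siKrt15 reading was at the floor and both control readings were above zero but not well above background, so no fold is given. Mmp20, the protease of the secretory stage, read 0.989 on the siKrt15 array, 0.987 on the siNeg array and 0.970 on the mock array, all at the floor.

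Odam and Amtn, the proteins that maturation-stage ameloblasts deposit at the enamel surface, were likewise not well above background on any array. The Odam probe at 261 was at the floor throughout, with 1.1 on the siKrt15 array, 1.12 on the siNeg array and 1.1 on the mock array. The Odam probe at 885 read 2.14 on the siKrt15 array, 2.41 on the siNeg array and 1.75 on the mock array, and these lie within 1 error-model SD (1.02 to 1.03) of each other. Amtn, amelotin, read 0.95 on the siKrt15 array, at the floor, 2.11 on the siNeg array and 1.99 on the mock array. As with Enam and the Amelx probe at 117, the siKrt15 reading was the lowest of the arrays, and the readings lie too close to background for a fold. This order was not shared by all: the siKrt15 reading was the highest at the Amelx probe at 590 and, at the floor, for Ambn and Mmp20. It lay between the controls at the Odam probe at 885. Over the 10 probes that were never well above background, signals ran from 0.92 to 4.03. Mean spot brightness of these probes was 18.5 to 24.1 scanner units on the siKrt15 array, 18.9 to 23.3 on the siNeg array and 17.2 to 22.2 on the mock array, where the local background was 19 to 21, 18 to 21 and 18 to 20.

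**Figure D2:**
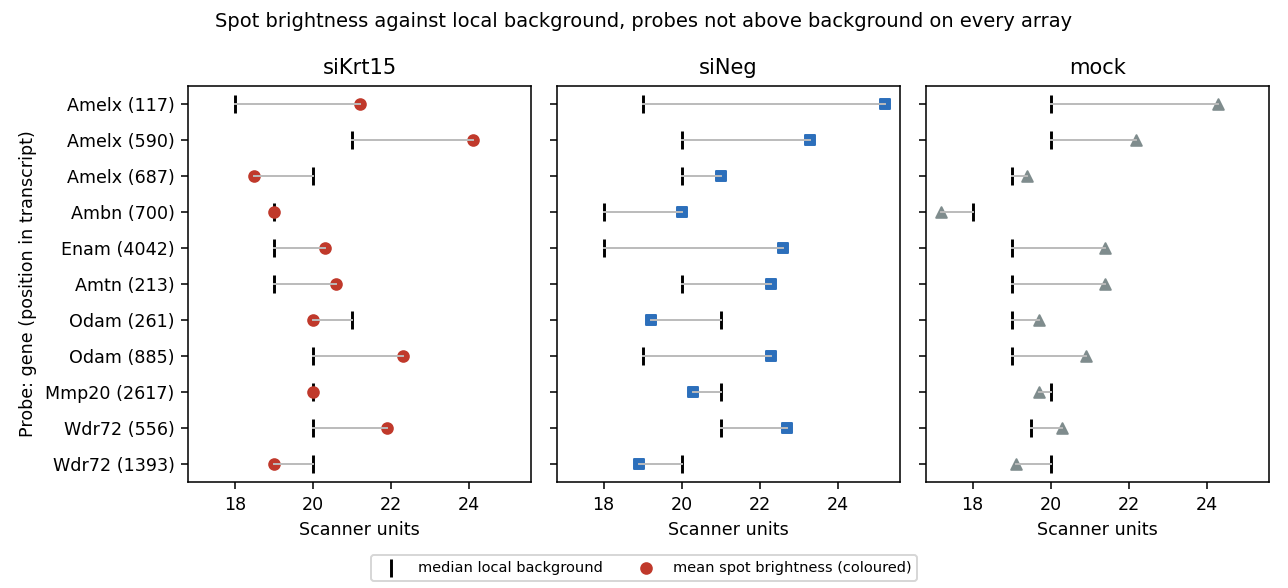
Mean spot brightness (coloured symbols) and median local background (black ticks), both in scanner units before background subtraction, for the 11 probes that were not well above background on every array, in 1 panel each for siKrt15, siNeg and mock. The spots lie within a few units of their own background, and the Amelx probe at 117 reaches 25.2 on the siNeg array and 24.3 on the mock array, against 21.2 on the siKrt15 array.

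For the genes that were measured, signals were put on the log2 scale, each array's 75th percentile was subtracted and the arrays were compared, over the probes well above background on both. The error beside each difference is an SD propagated from the scanner's signal error, which for bright spots is nearly a fixed share of the signal. It leaves out differences between cultures and labelling reactions. A difference of at least 2-fold was counted. Against siNeg, 4 of the 10 genes were measured, 1 was at least 2-fold higher in siKrt15 and 0 were lower, where 1.70% of the 17121 genes measured in that comparison were higher and 2.0% lower (3.70% either way). Against mock, 4 were measured, again with 1 higher and 0 lower, beside 2.18% and 1.24% of 17131 genes (3.43% either way). With 4 genes, 1 call is 25.0% of those measured, and no smaller share above zero could be seen. Between siNeg and mock, 5 were measured and 0 passed in either direction, where 0.356% of 17417 genes were higher and 0.0459% lower (0.402% either way). The median of the measured members was −0.22 against siNeg and −0.16 against mock, and 0.13 for siNeg against mock. Over all genes it was −0.08, −0.06 and 0.02, with an SD of 0.42, 0.43 and 0.23.

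Adgrf4 was the member past 2-fold, and it was higher in siKrt15. Its signal was 108 on the siKrt15 array, 32.4 on the siNeg array and 28.2 on the mock array, with scanner errors of 10.8, 3.38 and 2.97. Only the siKrt15 array stood apart, and the controls lay within 1.22-fold of each other. On the normalized log2 scale the gene was higher by 1.48 ± 0.21 (error-model SD) against siNeg, or 2.78-fold, and by 1.76 ± 0.21 against mock, or 3.39-fold. Relative to the median of all genes these were 1.55 and 1.83. The siNeg minus mock difference was 0.29 ± 0.21. Ranked from the highest, Adgrf4 was number 113 of 17121 genes against siNeg, so that 0.66% of genes were at least as far up, and number 88 of 17131 (0.514%) against mock. By the smaller of its differences from the controls it ranked 94th of 16912 genes measured on all arrays, and 252 of those genes (1.49%) were at least 2-fold higher than both controls. With background correction by the normexp method the values were 0.74 and 0.89, short of 2-fold. They ranged up to 1.75 and 1.90 under the other settings, and 12 of 13 settings in each comparison passed 2-fold. Some of these could not move a gene with 1 bright probe: the filters on dim probes, the threshold and the probe choice left 1.48 against siNeg unchanged. The gene rests on 1 probe.

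The genes whose differences lay nearest to those of Adgrf4 were Cdca3 (1.49 against siNeg and 1.78 against mock), Zwilch (1.5 and 1.70) and Aurka (1.43 and 1.71). Nearness was the Euclidean distance over the 2 log2 differences, which share the siKrt15 array, among 16912 genes. It came to 0.0256 for Cdca3, 0.0661 for Zwilch and 0.0666 for Aurka, and 35 genes lay within 0.2.

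Wdr72 was lower in siKrt15 than in both controls without reaching 2-fold. Its probe at 4783 read 10.5 on the siKrt15 array, 13.6 on the siNeg array and 16.2 on the mock array. Its probe at 1309 read 6.94 on the siKrt15 array, 11.4 on the siNeg array and 8.88 on the mock array. The siKrt15 array was the lowest at both probes, while the order of the controls was turned between them. The log2 differences from siNeg were −0.63 ± 0.27 and −0.98 ± 0.32, and those from mock −0.80 ± 0.26 and −0.53 ± 0.33 (error-model SD), in the order of the probes at 4783 and 1309. Between the controls, siNeg minus mock was −0.17 ± 0.25 at the probe at 4783 and 0.44 ± 0.29 at the probe at 1309. Averaged over both probes, Wdr72 was at −0.80 ± 0.21 against siNeg (1.75-fold lower), −0.67 ± 0.21 against mock (1.59-fold lower) and 0.13 ± 0.19 for siNeg against mock. Of all genes measured, 3.96% against siNeg and 5.27% against mock were as far down or farther. All 7 scalings, a count that includes the scaling used here and normexp, kept Wdr72 below 0. It ran from −0.85 to −0.29 against siNeg and from −0.71 to −0.22 against mock, with normexp at the upper end of both ranges. Quantile normalization and removal of the signal trend each gave −0.50 against siNeg. Both probes were dim, and without the filter on dim probes the median of all genes against siNeg was −0.20, where it was −0.08 with it. The remaining probes were not well above background on any array. The probe at 556 read 1.5 on the siKrt15 array, 2.38 on the siNeg array and 0.979 on the mock array, and the probe at 1393 was at the floor, between 0.920 and 0.936.

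Fam83h was lower in siKrt15 by less than 2-fold. Its signal was 5690 on the siKrt15 array, 6900 on the siNeg array and 6980 on the mock array, the controls lying close together and the siKrt15 array below both. The differences were −0.54 ± 0.20 against siNeg (1.45-fold lower), −0.47 ± 0.20 against mock (1.39-fold lower) and 0.07 ± 0.20 for siNeg against mock. They stayed below 0 in 7 of 7 scalings, at −0.58 to −0.26 and −0.52 to −0.37. Differences of this size were common: 10.2% of genes against siNeg and 12.4% against mock were as far down or farther.

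Klk4, the protease of the maturation stage, showed no difference beyond its error. It read 44.3 on the siKrt15 array, 34.7 on the siNeg array and 35.4 on the mock array. The siKrt15 signal was the highest before scaling, and that array also had the highest 75th percentile over all probes (216, against 180 for siNeg and 191 for mock). After scaling, the difference was 0.09 ± 0.21 against siNeg, 0.15 ± 0.21 against mock and 0.05 ± 0.21 for siNeg against mock. Over the scalings it ran from −0.05 to 0.36 against siNeg, below 0 in 1 of 7, and from 0.01 to 0.32 against mock. The local background of the mock spot was flagged as an outlier by the software.

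**Figure D3:**
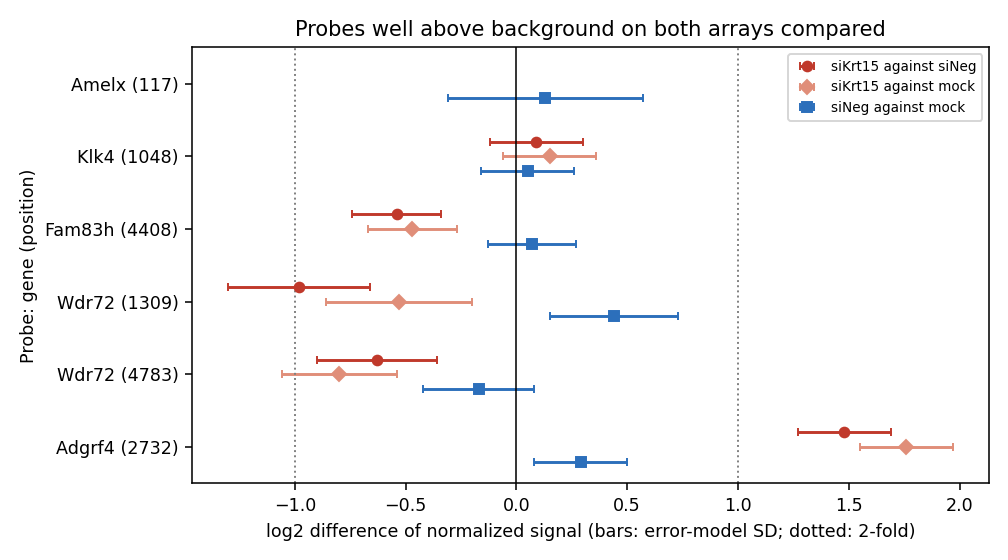
Normalized log2 difference of each probe that was well above background on both arrays compared, for siKrt15 against siNeg (red), siKrt15 against mock (light red) and siNeg against mock (blue), with bars of 1 error-model SD and dotted lines at 2-fold. Adgrf4 lies at 1.48 and 1.76, beyond the upper line, both Wdr72 probes and Fam83h lie between 0 and the lower line, and Klk4 lies at 0.09 and 0.15.

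Genes that work with these members, or resemble them, were listed by role and described in the same way. Ion transport in maturing enamel and inherited enamel defects gave a list of 30 genes, of which 27 were measured. In each siKrt15 comparison 0 were at least 2-fold higher and 1 was at least 2-fold lower, and the list's median was −0.07 against siNeg and −0.02 against mock. The lower gene was Car6, a secreted carbonic anhydrase. Its signal was 1490 on the siKrt15 array, 3160 on the siNeg array and 3070 on the mock array. The log2 difference was −1.35 ± 0.20 against siNeg and −1.22 ± 0.20 against mock, with 0.13 between the controls, and 13 of 13 settings passed 2-fold in both comparisons (−1.39 to −1.07, and −1.27 to −1.12). Car6 has 1 probe, so the filters on dim probes, the threshold and the probe choice could not move it.

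Other members of the ion transport list stayed within 2-fold. The citrate transporter Slc13a5 was at −0.75 against siNeg and −0.41 against mock, with 0.56 between the controls. Its brightest probe read 7.74 in siKrt15, 10.9 in siNeg and 7.80 in mock, and the difference from mock averages 2 probes (−0.63 and −0.19). Without the filter on dim probes, Slc13a5 turned to 0.22 against siNeg, with −0.05 against mock. The bicarbonate cotransporter Slc4a4 was at 0.71 against both, although without that filter it was at −0.15 and −0.05. The anion exchanger Slc26a6 was at −0.51 and −0.56. The transcription factors of the ameloblast lineage were all measured, 16 of 16, with 0 past 2-fold in either direction and a median of −0.04 in both comparisons. Among them were Runx2 at 0.50 and 0.39 (probes 0.15 and 0.85 against siNeg, and −0.28 and −0.31 for the gene without the filter on dim probes), the epithelial factor Trp63 at −0.32 and −0.56, and Cebpb at −0.13 and 0.03.

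The enamel matrix genes belong to the secretory calcium-binding phosphoproteins, a family that also makes bone, dentin and milk proteins. A list of 14 other genes held members of this family and the related Sparc and Sparcl1. Of the 14, 13 had a probe and 6 were measured, with 1 at least 2-fold higher in siKrt15, 0 lower, and a median of −0.04 against siNeg and 0.07 against mock. Spp1, which encodes osteopontin, was the higher one. It read 91.8 on the siKrt15 array, 17.9 on the siNeg array and 14.6 on the mock array, for differences of 2.09 ± 0.22 and 2.47 ± 0.23 (0.74 and 0.88 with normexp). The dentin gene Dspp was at −0.52 against siNeg and 0.00 against mock. The milk gene Csn3 was at −0.45 and −0.33, on the 1 probe of 3 that was well above background, and the collagen-binding Sparc at 0.19 and 0.25.

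Among relatives of Adgrf4 in the adhesion receptor group F, 2 of 4 were measured against siNeg and 1 against mock, with 0 past 2-fold. Adgrf1 was at −0.85 ± 0.36 against siNeg, and Adgrf3 at −0.81 ± 0.28 against siNeg and −0.32 ± 0.29 against mock. Both differences from siNeg were negative where that of Adgrf4 was positive, and both genes were dim, with Adgrf1 at 5.61 on the siKrt15 array, 8.47 on the siNeg array and 4.06 on the mock array. Of 7 other Fam83 genes, 6 were measured, with 1 at least 2-fold higher and 0 lower and a median of −0.23 against siNeg and −0.12 against mock. Fam83d, which acts at the mitotic spindle, read 78.8 on the siKrt15 array, 14.9 on the siNeg array and 17.1 on the mock array, for 2.15 ± 0.23 and 2.02 ± 0.22 (0.70 and 0.72 with normexp). Fam83g fell short of 2-fold at −0.95 ± 0.19 and −0.60 ± 0.20, as the mean of 2 probes, with 0.35 between the controls. The probes lay at −1.04 and −0.86 against siNeg, and at −0.76 and −0.44 against mock. Its brightest probe read 2270 on the siKrt15 array, 3440 on the siNeg array and 3400 on the mock array. Fam83e was at −0.31 and −0.12, and Fam83f at −0.23 and −0.13.

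Casein kinase 1 enzymes, to which Fam83 proteins bind, lay near 0, with 6 of 6 measured, 0 past 2-fold and medians of −0.03 and −0.06. Csnk1a1 was at −0.20 and −0.19, and Csnk1e at 0.18 and 0.05. Relatives of Wdr72 and proteins of the vesicle proton pump that they assist had 6 of 6 measured, 0 past 2-fold and medians of −0.23 and −0.22. Dmxl2 was at −0.47 and −0.44, Wdr7 at −0.39 and −0.20 (its probes from −1.1 to 0.23 against siNeg), and the pump subunits Atp6v0a1 at −0.29 and −0.44 and Atp6v1a at −0.18 and −0.19.

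**Figure D4:**
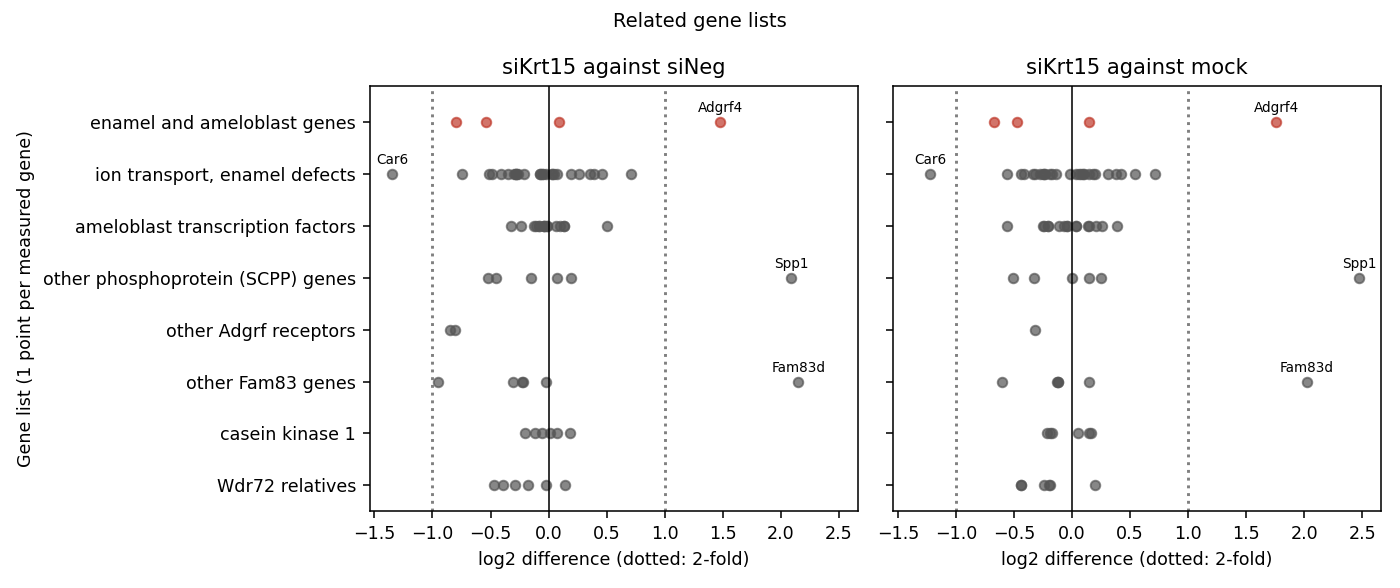
Normalized log2 difference of each measured gene, 1 point per gene, for the enamel and ameloblast genes (red, top row) and the related lists (grey), with siKrt15 against siNeg on the left, siKrt15 against mock on the right and dotted lines at 2-fold. Adgrf4, Spp1 and Fam83d lie beyond the upper line and Car6 beyond the lower line in both panels.

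**Figure D5:**
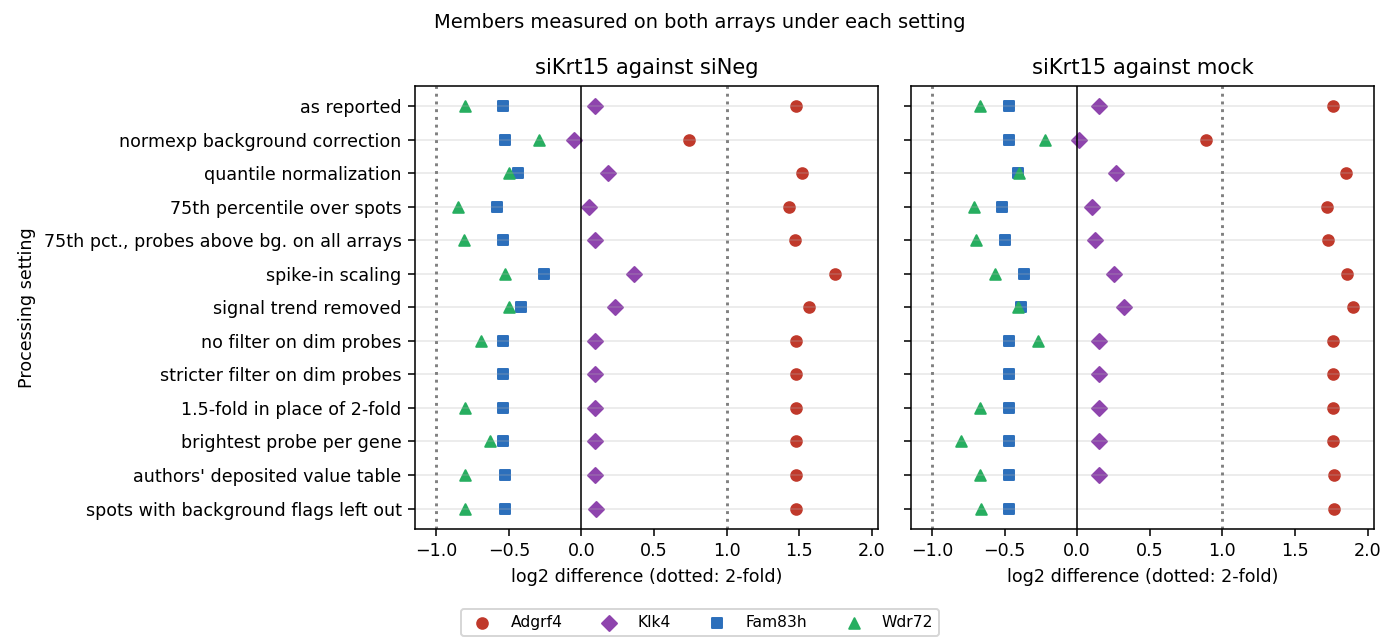
Normalized log2 difference of the 4 members measured on both arrays, under each processing setting (rows), with siKrt15 against siNeg on the left, siKrt15 against mock on the right and dotted lines at 2-fold. Adgrf4 stays beyond 2-fold except with normexp (0.74 and 0.89), Wdr72 and Fam83h stay below 0, and Klk4 lies on both sides of 0 against siNeg.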

How the data were processed

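Per the labels' protocols, Cy3-labelled cRNA was made from total RNA for 1-colour Agilent arrays of mouse genes. Scans were read with Agilent Feature Extraction 11.5.1.1, a version taken from the submitters' processing notes, with mm9 probe coordinates per the file headers. The deposited scanner files give each spot's processed signal as an intensity, background-subtracted by the software. The authors' deposited value table is on a log2 scale: after 1 constant per array, 92.4% of probes (siKrt15), 94.0% (siNeg) and 93.8% (mock) lay within 0.01 of the log2 processed signal minus the array's 75th percentile, with medians of −3.72, −3.51 and −3.52 and no centring of genes. It served as an alternative.

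Control spots and outlier spots were left out, leaving 56598 probes with values on all 3 arrays. Each array's 75th percentile of log2 processed signal was subtracted. Probes were named by accession (32982), symbol (10220) or synonym (520) through RefSeq (GRCm38.p6, for names alone), and 12867 kept the file's name and stayed out of gene counts. A gene's difference is the mean over its unsaturated probes that were well above background on both arrays. Where only 1 array was above background, the bound uses whichever is higher of the dim spot's signal and the array's lowest signal well above background. It takes the brighter spot's signal without its error. That lowest signal is no strict limit, since on the mock array, where it was 4.56, the 1700041A01Rik probe read 4.64 without the flag. All arrays were on 1 slide with 1 scan, so slide and scan did not differ between groups, while batches of culture, extraction and labelling were not given in the sources used here, and precision is limited by the number of arrays. The procedure was tested on simulated data for probes well above background on all arrays, so that test does not cover readings near the floor. Alternatives changed the background correction (normexp with an offset of 50, limma 3.58.1), scaling (quantile, other percentiles, 8 spike-in probes, signal trend removed), filters, threshold, probe choice and table. Computation used Python 3.11.15 and numpy 2.4.6.

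The members and lists were chosen with earlier results of these data known. Named genes are all members and Krt15, in each list up to 4 measured genes farthest from 0 in siKrt15 against siNeg, any list gene at least 2-fold apart in a siKrt15 comparison, the 3 genes nearest to a member past 2-fold, and up to 2 annotated neighbours on each side of a member. The values of 1 list gene named by this rule are not reported here.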

Additional observations from a re-analysis of the deposited data

How the results depend on the processing

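No named difference passed 2-fold in opposite directions under the 12 alternatives, but most never passed it, so few could. Without the filter on dim probes, signs against siNeg turned for Slc13a5 (−0.75 to 0.22), Slc4a4 (0.71 to −0.15) and Runx2 (0.50 to −0.28). With normexp, Adgrf4, Spp1 and Fam83d fell short of 2-fold in both siKrt15 comparisons. No paired analysis was possible because each group has 1 array, and no replicate could be left out. Genes at least 2-fold apart numbered 633 (siKrt15 against siNeg), 587 (siKrt15 against mock) and 70 (siNeg against mock). They numbered 105, 126 and 0 with normexp, 2547, 2195 and 1249 without the filter on dim probes, 267, 337 and 4 with a minimum signal of 20, and 2298, 2316 and 571 at 1.5-fold, and 45 between siNeg and mock with spike-in scaling. The share of the main calls that were higher was 46.0%, 63.7% and 88.6%. Over 7 scalings the siKrt15 shares ran from 39.4% to 83.1% against siNeg and from 55.7% to 83.6% against mock. For siNeg against mock normexp made 0 calls and so has no share, and the other scalings gave 53.3% to 88.6%. The median of all genes ran from −0.12 to 0.19, −0.11 to 0.04 and −0.15 to 0.04. Members at least 2-fold higher numbered 0 with normexp in both siKrt15 comparisons, since Adgrf4 fell to 0.74 and 0.89. The offset of 50 added there exceeds its control signals. Members at least 2-fold lower numbered 2 in both without the filter on dim probes, namely Enam (−1.81 and −1.47) and Amtn (−1.41 and −1.25), whose siKrt15 readings were at the software's floor. At 1.5-fold, 1 member was lower in both, Wdr72. The stricter filter left 3 members measured, without Wdr72. Leaving out spots with background flags, an alternative chosen after seeing the data, removed Klk4 against mock. No spot with a signal below 4.49 was well above background, which sets what these arrays can show of the matrix genes.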

Other observations

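The genes Odam, Amtn, Ambn and Enam lie close together on mouse chromosome 5, and the region as a whole gave little signal. Their outer probes are 617 kb apart (chr5:88316448-88933686 on mm9), and the array has 19 probes in that span. Of the 14 probes that are not for a member, which belong to 11 genes, 1 was well above background on all 3 arrays. It reads Csn3, the kappa-casein gene, and gave 61.7 on the siKrt15 array, 70.2 on the siNeg array and 68.8 on the mock array. Other probes of Csn3, at 0.899 to 1.07 and at 2.63 to 3.25 across the arrays, were not well above background on any. The probe for Smr2, a submaxillary gland gene, was well above background on the siKrt15 array (10.2) and the mock array (8.30), and not on the siNeg array (4.0). Utp3, a ribosome assembly gene that follows Enam and Jchain in the RefSeq order, was at −0.11 against siNeg and −0.05 against mock.

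Neighbours of the other members differed among themselves. Amelx lies inside the gene Arhgap6 in the RefSeq table, and Arhgap6 was at −0.45 against siNeg and −0.40 against mock. On the siKrt15 array 1 of the 4 Arhgap6 probes was well above background. Of the other annotated genes beside Amelx, Hccs was at −0.32 and −0.52 and Msl3 at 0.26 and 0.33. Gm15246 was at 0.58 and 0.87, and at −0.01 and 0.11 with normexp. Beside Mmp20, the neutrophil collagenase gene Mmp8 was at −0.58 ± 0.38 (error-model SD) against siNeg and −0.70 against mock. Mmp27 was not well above background on any array. Beside Klk4, Klk5 was at −0.28 ± 0.41 against siNeg and −0.32 against mock, and at 0.14 and 0.01 with quantile normalization. The genes around Fam83h lay at 0.38 and 0.65 (Ccdc166), −0.32 and −0.03 (Mapk15), 0.17 and 0.04 (Iqank1) and −0.01 and 0.02 (Scrib), against −0.54 and −0.47 for Fam83h itself. Beside Adgrf4, the probes of Opn5 and Adgrf2 were not well above background on any array, and Ptchd4 had 1 of 3 probes well above background on the siKrt15 array and 0 on the siNeg and mock arrays. All of these are single arrays, and none of the differences has a replicate check.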
